A study of Mus musculus with 12 samples.

Results

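Cholesterol synthesis genes were followed across whole hearts of mice that ran on a wheel and of mice that did not. The group was defined by name as 8 genes, namely Hmgcs1, Mvd, Idi1, Fdps, Fdft1, Sqle, Cyp51 and Insig1, and its probes were all those to which the platform annotation gave a member's symbol. Probes were found for 6 of the 8 genes, 12 probes in all, while the annotation named no probe for Hmgcs1 and Fdft1, which were not analysed here. Over the whole platform 34885 of 45281 probes carried a single gene symbol. The hearts came from male C57Bl/6 mice aged 8 weeks, with 6 samples from animals given 7 days of wheel running by choice (exercised) and 6 from sedentary animals of the same strain, sex and age. RNA of the whole heart was hybridised to Illumina beadchips, so that fewer cells of a type and less RNA per cell cannot be told apart. Whether every numbered sample stands for its own animal is not in the labels, and the p-values cover only sample-to-sample spread, which may be technical.

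Cells build cholesterol from acetyl-CoA through the mevalonate pathway, which first makes isoprenoid units, joins them into squalene and then folds squalene into sterols. The genes of the pathway are switched on together by the transcription factor SREBP-2 when membrane sterols run low, and Insig proteins hold its precursor in the endoplasmic reticulum when sterols are plentiful. The pathway is most active in the liver, and heart muscle covers part of its need by taking up lipoproteins.

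Stretches of promoter are shown for the 5 members with an entry in the RefSeq promoter table (GRCm38.p6), because shared control by SREBP-2 and its partner NF-Y is what groups these genes. Position -1 is the base before the annotated start. Capitals mark the CCAAT box (ATTGG or its complement), the E-box CACGTG and the sterol regulatory element TCACNCCAC, searched on both strands over the 250 bases before the start.

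Mvd (chr8:122443423-122443522, minus strand, bases -100 to -1): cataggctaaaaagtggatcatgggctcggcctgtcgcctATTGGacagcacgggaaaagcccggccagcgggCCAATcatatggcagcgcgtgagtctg
Idi1 (chr13:8885506-8885605, plus strand, bases -100 to -1): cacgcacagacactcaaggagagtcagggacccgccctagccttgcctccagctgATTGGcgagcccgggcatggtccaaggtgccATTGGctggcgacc
Cyp51 (chr5:4104698-4104797, minus strand, bases -100 to -1): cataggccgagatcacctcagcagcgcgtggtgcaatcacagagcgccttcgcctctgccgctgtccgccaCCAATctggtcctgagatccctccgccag
Insig1 (chr5:28071192-28071321, plus strand, bases -220 to -91): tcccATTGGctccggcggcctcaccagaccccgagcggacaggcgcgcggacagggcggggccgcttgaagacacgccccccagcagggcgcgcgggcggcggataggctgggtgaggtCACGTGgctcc
Hmgcs1 (chr13:119690171-119690310, plus strand, bases -180 to -41): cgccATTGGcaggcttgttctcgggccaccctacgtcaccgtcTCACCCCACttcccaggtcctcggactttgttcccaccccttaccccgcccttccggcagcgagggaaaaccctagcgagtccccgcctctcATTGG

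The CCAAT box was present in the window of 5 of these 5 promoters and of 33.8% of all 32851 promoters in the table. In Mvd and Idi1 it occurred at a pair of positions, -60 and -27 in Mvd and -45 and -14 in Idi1. The E-box was found in Insig1, at -101, and in 6.02% of all promoters. The sterol regulatory element in these letters was found in Hmgcs1, at -137, and in 1.05% of all promoters. A match of letters is a description of the sequence and not a site of binding.

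Before the members are compared, 2 features of the arrays bear on them. Exercised replicates 1, 5 and 6 were rich in liver transcripts, with means over 14 measured hepatocyte markers between 10.40 and 12.94 on the log2 scale, against 5.98 to 7.97 on the other 9 arrays. All 14 of these markers had a positive difference between exercised and sedentary hearts, where 43.4% of all genes did, with a median of 2.81. Without those 3 arrays 13 of 14 did, where 48% of all genes did, with a median of 0.31. The 14 were those of 20 listed markers that passed the detection filter. Cps1, Uox and Apoc3 were detected on 5 exercised and on 2, 1 and 2 sedentary arrays. They reached the test through the exercised group, and nothing is read from the count. Serpina1b, a secreted protease inhibitor of hepatocytes, lay between 12.08 and 14.68 on the 3 arrays and between 6.98 and 9.85 on the others, and the other two markers of highest mean, Cyp2e1 and Apoa2, were likewise separate. Raw signals also fell into a low range on 8 arrays, with medians of 48.6 to 53.3, and a high range on 4 arrays, with medians of 130.5 to 138.6, namely exercised replicates 2, 3 and 6 and sedentary replicate 2. Without exercised replicates 1, 5 and 6, the exercised arrays left are 2 and 3 of the high range and 4 of the low range. That comparison therefore does not separate exercise from the background range. Between 16619 and 18708 probes were detected per array. The cardiomyocyte marker list, 7 genes with Myh6, Ryr2 and Actc1 among them, had a mean of 13.97 to 14.13 in exercised and 13.95 to 14.20 in sedentary hearts. Endothelial and fibroblast lists, of 7 tested genes each, had medians of -0.36 and -0.49, with 0 genes past the adjusted threshold and 5 and 4 lower at an unadjusted p under 0.05 in limma, as were 9.66% of all probes.

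No cholesterol synthesis gene passed the test between exercised and sedentary hearts. Of the 12 probes, 7 were detected on at least 6 of 12 arrays (detection p under 0.01) and were tested, which left 5 genes, Mvd, Fdps, Sqle, Cyp51 and Insig1. In limma, fitted over all 17098 detected probes, 0 of the 5 genes and 0 of the 7 probes had a Benjamini-Hochberg adjusted p under 0.05, where 0.0877% of all probes did. At an unadjusted p under 0.05, 1 of the 5 genes (Cyp51) and 3 of the 7 probes (that of Cyp51 and 2 of Insig1) were higher, against 14.6% of all probes in either direction and 4.97% on the higher side. Both Insig1 probes were detected on 6 exercised and 2 sedentary arrays and so reached the test through the exercised group, and nothing is read from their count. Of the 5 genes 4 had a positive difference, where 43.4% of all genes did. The median difference of the 5 genes was 0.27, with 0.11 without exercised replicate 6 and 0.15 without exercised replicate 5, against -0.04 over all 9843 genes tested. Without exercised replicates 1, 5 and 6 the median of the same 5 genes was -0.11, against -0.02 over all genes. Again 0 were called, and 1 (Cyp51) had an unadjusted p under 0.05. In that comparison of 9 arrays 0.00585% of all probes passed the adjusted threshold and 14.3% had an unadjusted p under 0.05. With 12 arrays, their number sets the precision.

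**Figure D1:**
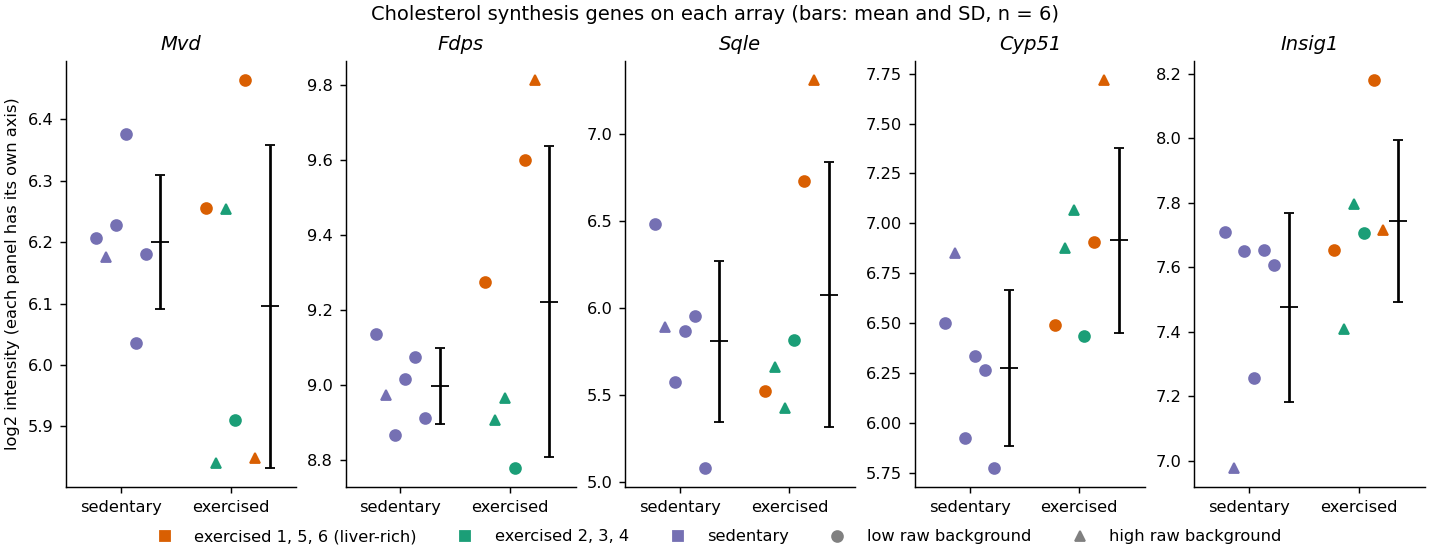
Log2 intensity of the probe used for each gene on every array, by group, with the mean and SD (n = 6) beside the points. Exercised replicates 5 and 6 hold the highest values of Fdps and Sqle, and the groups overlap for all 5 genes.

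Of the early enzymes, 1 could be compared. Mvd, mevalonate diphosphate decarboxylase, which makes the first isoprenoid unit, was at 5.84, 6.08 and 6.46 (lowest, median and highest log2 intensity) in exercised and at 6.04, 6.19 and 6.38 in sedentary hearts. The groups overlapped, with exercised replicates 2, 4 and 6 below every sedentary array and replicate 5 above all of them. The difference was -0.11 (SE 0.13, adjusted p = 0.70 in limma), with a 95% interval from -0.39 to 0.18. Without the 3 arrays rich in liver transcripts it was -0.20 (SE 0.16).

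Idi1, the isomerase that interconverts both isoprenoid units, gave no usable comparison. Its probe was above background on 2 of 12 arrays, exercised replicates 2 and 6, and on none of the sedentary arrays. Values were 4.40, 4.86 and 5.27 in exercised and 4.44, 4.68 and 4.84 in sedentary hearts, and the exercised mean of 4.86 lay below the detection floor of 5.09 on the sedentary arrays, so that no fold is given.

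Fdps was highest on the 3 arrays rich in liver transcripts. Fdps, farnesyl diphosphate synthase, makes the precursor of sterols, ubiquinone and prenylated proteins. Its probe was at 8.78, 9.12 and 9.81 in exercised and at 8.87, 9.0 and 9.14 in sedentary hearts. The 3 values above every sedentary array were those of exercised replicates 1, 5 and 6, at 9.28, 9.60 and 9.81, in the same order as their hepatocyte list means of 10.40, 11.89 and 12.94. The other 3 exercised arrays had a mean of 8.88 ± 0.09 (SD, n = 3), against 9.0 ± 0.10 in sedentary hearts (SD, n = 6). The difference over all arrays was 0.23 (SE 0.16, adjusted p = 0.49 in limma), with 0.11 without exercised replicate 6 and 0.15 without exercised replicate 5. It turned to -0.11 (SE 0.12) without those 3 arrays and to -0.16 (SE 0.11) with the hepatocyte list mean as a covariate. A further probe of Fdps was detected on no array.

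Sqle was highest on 2 of those 3 arrays. Sqle, squalene epoxidase, catalyses the first oxygen-requiring step and is a point of flux control. It was at 5.43, 5.74 and 7.31 in exercised and at 5.08, 5.88 and 6.48 in sedentary hearts. Exercised replicates 5 and 6, at 6.73 and 7.31, exceeded every sedentary array, while replicate 1, at 5.53, lay inside the sedentary range. The difference was 0.27 (SE 0.31, adjusted p = 0.67 in limma), with a 95% interval from -0.40 to 0.94. It was 0.02 without exercised replicate 6, 0.14 without exercised replicate 5, 0.12 without sedentary replicate 6 and 0.40 without sedentary replicate 1, and turned to -0.18 (SE 0.25) without the 3 arrays rich in liver transcripts. A further probe of Sqle was detected on exercised replicate 6 alone, and another on no array.

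**Figure D2:**
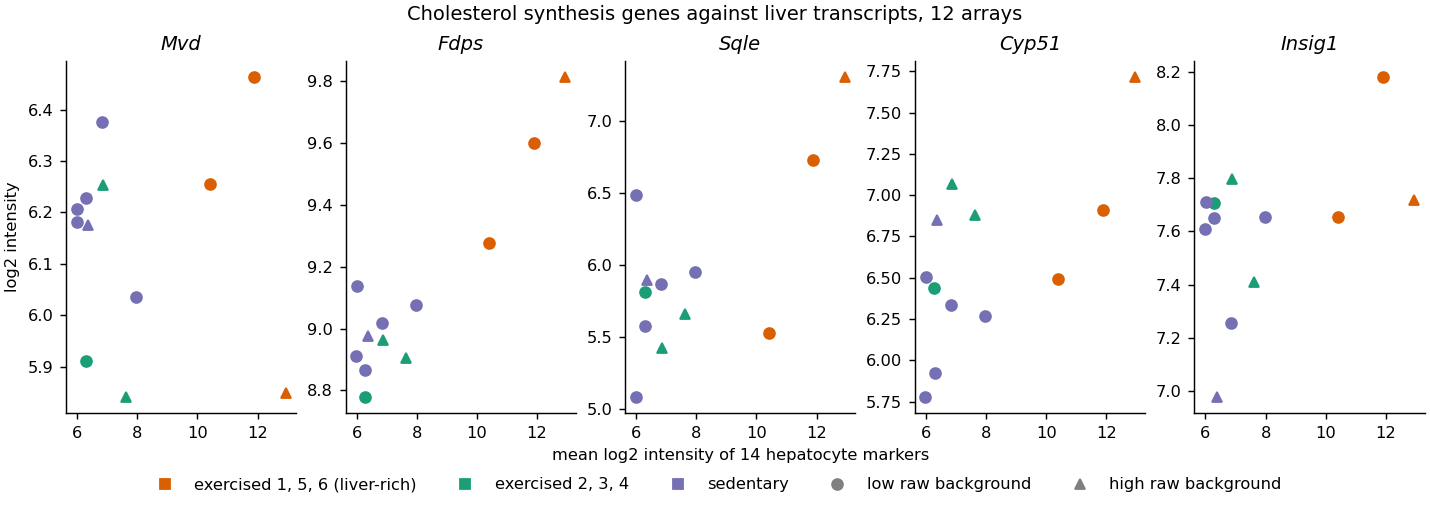
Log2 intensity of each gene against the mean log2 intensity of 14 hepatocyte markers on the 12 arrays. Fdps is highest on the 3 arrays rich in liver transcripts, and Sqle on 2 of them.

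Cyp51 had the smallest p of the 5 genes and differed in the same direction without the arrays rich in liver transcripts. Cyp51, lanosterol 14-alpha-demethylase, is the cytochrome P450 of the sterol branch. Its lowest, median and highest values were 6.44, 6.89 and 7.72 in exercised and 5.78, 6.30 and 6.85 in sedentary hearts. Exercised replicates 2, 3, 5 and 6 lay above every sedentary array, and the groups overlapped through replicates 1 and 4, at 6.49 and 6.44. The difference was 0.64 (SE 0.22), or 1.56-fold, with an unadjusted p of 0.011 and an adjusted p of 0.24 in limma. Without the 3 arrays rich in liver transcripts it was 0.52 (SE 0.23, adjusted p = 0.35 in limma). Exercised replicates 2 and 3, which remain in that comparison, are of the high-background range.

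The background range of the arrays moved with Cyp51. Its mean was 7.13 on the 4 high-background arrays and 6.33 on the 8 low-background arrays, and sedentary replicate 2, the sedentary array of the high range, held the highest sedentary value. With the background range as a block the difference was 0.43 (SE 0.17, adjusted p = 0.33 in limma). It was 0.45 (SE 0.19) within the low range, with 3 exercised and 5 sedentary arrays, and 0.37 within the high range, with 3 exercised arrays and 1 sedentary array. With the background block and the hepatocyte list mean together it was 0.14 (SE 0.17).

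Insig1, whose product holds the SREBP precursors in the endoplasmic reticulum and which is itself switched on by SREBP, had 4 probes that gave different accounts. Numbered by mean signal, probe 1 was detected on all 12 arrays, probes 2 and 3 on 8 each and probe 4 on none. Probe 1 was at 7.41, 7.71 and 8.18 in exercised and at 6.98, 7.63 and 7.71 in sedentary hearts. Exercised replicates 3, 5 and 6 lay above every sedentary array and the others inside the sedentary range. Its difference was 0.27 (SE 0.15, adjusted p = 0.41 in limma), with 0.16 (SE 0.18) without the 3 arrays rich in liver transcripts and 0.38 (SE 0.13, adjusted p = 0.25 in limma) with the background range as a block.

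Probes 2 and 3 of Insig1 were high on the high-background arrays. Probe 2 had a mean of 6.56 on the 4 high-background arrays and 5.14 on the 8 others, and probe 3 of 6.57 and 5.08. For both probes exercised replicate 6 was the highest array, at 7.39 and 7.41, and sedentary replicate 2 was the highest sedentary array, at 6.40 and 6.38. Both were detected on 6 exercised and 2 sedentary arrays, so that they entered the test through the exercised group. Their differences were 0.84 (SE 0.37) for probe 2 and 0.84 (SE 0.36) for probe 3, with adjusted p of 0.32 for each in limma. With the background range as a block these were 0.41 (SE 0.24) and 0.40 (SE 0.20), and within the low range 0.49 (SE 0.21) and 0.46 (SE 0.18). With the hepatocyte list mean added to the block they were 0.10 (SE 0.26) and 0.03 (SE 0.20). Probe 1 did not share this order, with a mean of 7.47 on high-background and 7.68 on low-background arrays.

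**Figure D3:**
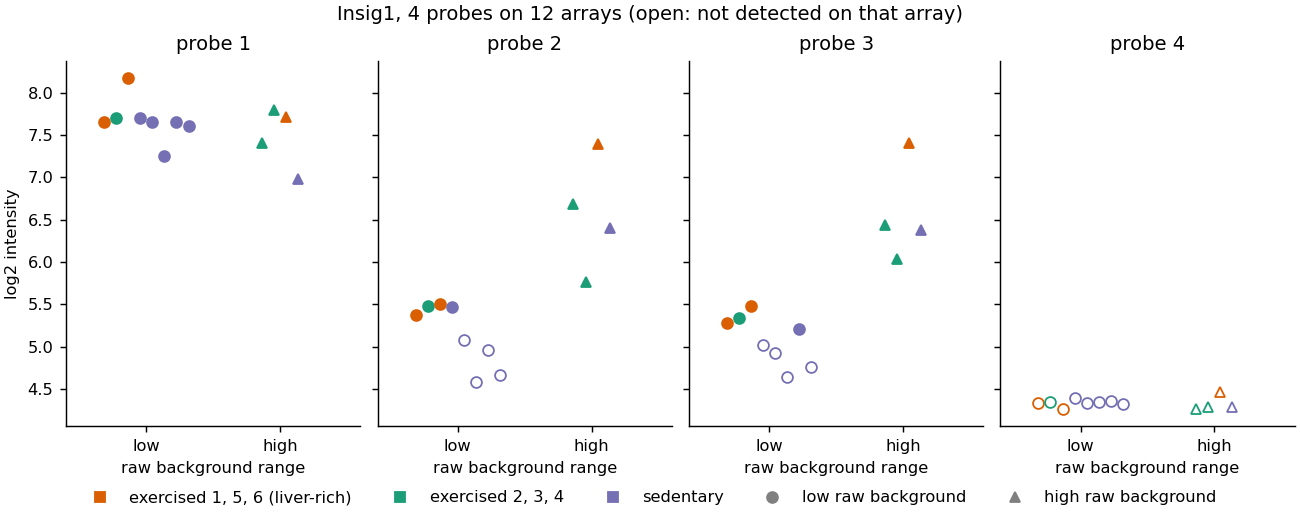
Log2 intensity of the 4 Insig1 probes on the arrays of the low and high raw background range, with open symbols where the probe was not detected. Probes 2 and 3 are higher on the 4 high-background arrays, probe 1 is not, and probe 4 is undetected throughout.

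The direction of the difference depended on the arrays rich in liver transcripts for Fdps and Sqle, and not for Mvd, Cyp51 and Insig1, in the comparison with and without those arrays. All of those arrays are exercised, so that liver transcripts and exercise cannot be told apart on them. Over the 9 arrays 2 of the 5 genes, Cyp51 and Insig1, had a positive difference, where 48% of all genes did.

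**Figure D4:**
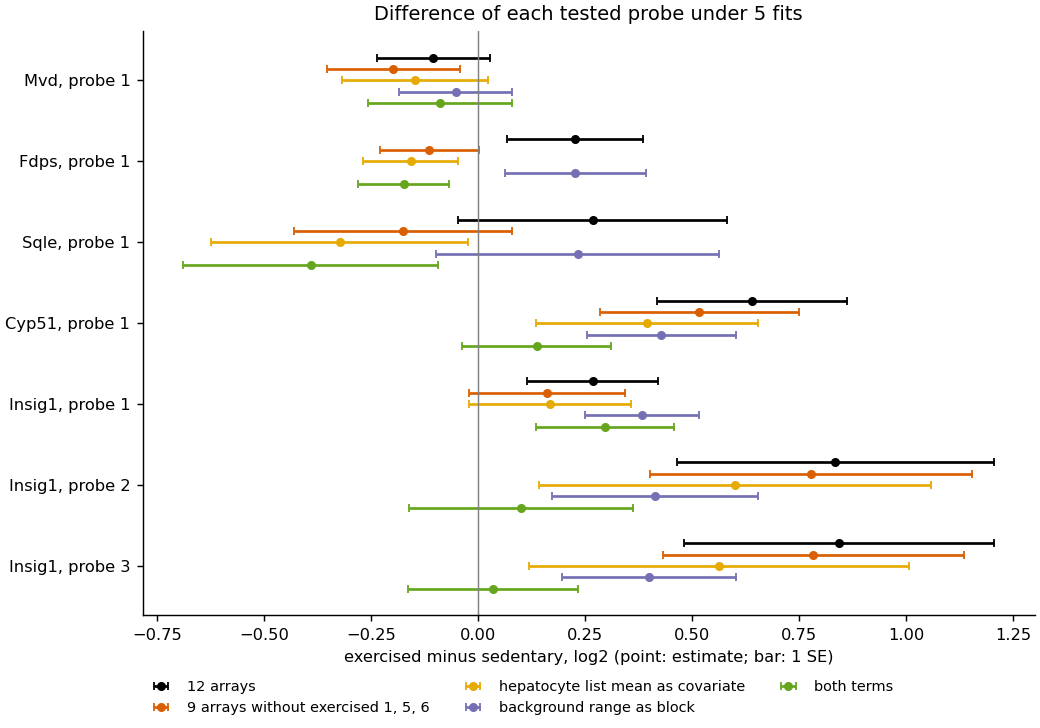
Difference between exercised and sedentary hearts (log2) for the 7 tested probes under 5 fits, with bars of 1 SE. Fdps and Sqle change sign once liver transcripts are accounted for, and the Cyp51 probe and probes 2 and 3 of Insig1 are smallest with both terms, at 0.14, 0.10 and 0.03.

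No pair of members passed a test of correlation on the arrays without excess liver transcripts. Over those 9 arrays, after subtraction of the group means, 7 of the 10 pairs of the 5 genes had a positive Pearson correlation. In exact two-sided permutation tests within groups 0 of the 10 had an unadjusted p under 0.05. The highest was that of Fdps with Cyp51 (r = 0.65, exact permutation p = 0.084, adjusted 0.54 over the 10 pairs; Spearman's rho = 0.62, exact permutation p = 0.11, adjusted 0.78), and it was 0.42 without the 2 arrays farthest from the median of Fdps. Without those 2 arrays that of Fdps with Sqle was higher, at 0.79, against 0.58 over the 9 arrays (exact permutation p = 0.13, adjusted 0.54; rho = 0.38, exact permutation p = 0.34, adjusted 0.78). The lowest was that of Cyp51 with Insig1 (r = -0.54, exact permutation p = 0.18, adjusted 0.54; rho = -0.20, exact permutation p = 0.62, adjusted 0.78), and it was -0.07 without the 2 farthest arrays.

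The genes whose pattern was most like the members' mean differed between all arrays and those 9. Likeness was measured as Pearson's r with the mean of the standardised member values after subtraction of group means. Over 12 arrays the 6 most alike were Pbld2, Tlcd4, Gstt1, Cdo1, Gsta3 and Gldc, with r from 0.88 to 0.91. Gsta3 is a glutathione transferase, Cdo1 the cysteine dioxygenase and Gldc a subunit of the glycine cleavage system, all abundant in liver. Over the 9 arrays the 6 most alike were Ndufv1, a subunit of respiratory complex I, Fyttd1, Wdr43, the translation initiation factor Eif4a1, Pard6g and Abhd18, with r from 0.94 to 0.98. These genes were picked for the highest r over few arrays, so that the size of r is no measure of shared control. The points share the arrays' depth and background range, and none of these 12 genes belongs to the lists of sterol and lipid genes used here.

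None of the remaining enzymes of the pathway passed the test. Of 14 further synthesis genes 9 were tested and 0 passed the adjusted threshold in limma. At an unadjusted p under 0.05 in limma 1 was lower, as were 9.66% of all probes. A positive difference was found in 6, where 43.4% of all genes had one. Among the 6 were Lss and Nsdhl, each detected on 4 exercised arrays and on fewer sedentary ones, 2 and 3, and nothing is read from the count. The median of the 9 was 0.12, with 0.02 without the 3 arrays rich in liver transcripts. Pmvk, phosphomevalonate kinase, averaged 6.49 ± 0.30 with running and 6.86 ± 0.30 without (SD, n = 6 each), with a difference of -0.37 (SE 0.17, adjusted p = 0.33 in limma). Sc5d, a desaturase late in the pathway, differed by 0.25 (SE 0.15). Lss, which cyclises squalene epoxide, differed by 0.33 (SE 0.22) and by 0.07 (SE 0.26) without those 3 arrays, and was detected on 4 exercised and 2 sedentary arrays, so that both values rest largely on signals not above background. Of 9 genes of the isoprenoid branches 6 were tested, all with a positive difference, where 43.4% of all genes had one. Their median was 0.03. Without the 3 arrays rich in liver transcripts it was 0.14, with 5 of 6 positive, as were 48% of all genes. Over all 12 arrays 0 passed in limma, also at an unadjusted p under 0.05. The smallest p belonged to Dhdds, which makes dolichol (0.18, SE 0.10), followed by the prenyltransferase subunits Fntb (0.12, SE 0.12) and Pggt1b (0.04, SE 0.12), and 2 further probes of Dhdds gave 0.02 each. Coq2, of ubiquinone synthesis, differed by 0.02 (SE 0.09) with the probe used and by -0.27 (SE 0.17) with a second probe.

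Regulators of the pathway did not pass either. Of 9 genes of SREBP control 8 were tested and 0 passed the adjusted threshold in limma. At an unadjusted p under 0.05 in limma 1 was lower, as were 9.66% of all probes. A positive difference was found in 6, where 43.4% of all genes had one. Mbtps2, among the 6, was detected on 5 exercised and 2 sedentary arrays. It reached the test through the exercised group, and nothing is read from the count. The median of the 8 genes was 0.09, with -0.04 within the low-background arrays and 0.01 once the background range was a block. Srebf2, which encodes SREBP-2, was at 6.15, 6.62 and 6.76 in exercised and at 6.65, 6.83 and 7.02 in sedentary hearts, with exercised replicates 2, 3 and 6, the high-background arrays of that group, below every sedentary array. Its difference was -0.27 (SE 0.12, adjusted p = 0.34 in limma), -0.37 (SE 0.16) without the 3 arrays rich in liver transcripts and -0.13 within the low-background arrays, and a second probe gave -0.12 (SE 0.15). Srebf1, which encodes the factor of fatty acid synthesis, differed by 0.29 (SE 0.17), and Insig2, the other Insig gene, by 0.19 (SE 0.17). Insig2 had a mean of 10.55 on high-background and 9.96 on low-background arrays, and its difference was -0.0058 (SE 0.10) with that range as a block and -0.03 within the low range.

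In uptake and transport of cholesterol 8 of 11 genes were tested, with a median of -0.03. In limma 0 passed and 1 was higher at an unadjusted p under 0.05, as were 4.97% of all probes. Vldlr, the receptor for triglyceride-rich lipoproteins that is abundant in heart, had the smallest p of this list. It was at 12.57, 12.77 and 13.16 in exercised and at 12.34, 12.46 and 12.64 in sedentary hearts, with 5 of 6 exercised arrays above every sedentary array. The difference was 0.36 (SE 0.11, adjusted p = 0.19 in limma), 0.49 (SE 0.13, adjusted p = 0.33 in limma) without the arrays rich in liver transcripts and 0.20 within the low-background arrays. Its 4 further probes gave 0.32 to 0.73. Without the arrays rich in liver transcripts 3 of the 8 genes had an unadjusted p under 0.05 in limma, as did 14.3% of all probes. Besides Vldlr these were Lrp1 (-0.64, SE 0.25) and Stard4 (-0.30, SE 0.13), both lower. Lrp1 had a mean of 5.88 on high-background and 6.73 on low-background arrays. Its difference over all arrays was -0.38 (SE 0.25). It was -0.11 (SE 0.17) with the background range as a block and -0.09 (SE 0.20) within the low range. Npc2, which carries cholesterol out of lysosomes, differed by -0.33 (SE 0.16) and the sterol carrier Stard5 by 0.33 (SE 0.21). Npc2 had a mean of 7.69 on high-background and 8.29 on low-background arrays. It was at -0.15 (SE 0.11) with that range as a block and at -0.19 (SE 0.12) within the low range. Stard5 was at 0.10 (SE 0.18) without the arrays rich in liver transcripts, at -0.02 with the hepatocyte list mean as a covariate and at 0.02 within the low-background arrays.

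Of 10 genes of efflux and the liver X receptors 5 were tested and 0 were called in limma, also at an unadjusted p under 0.05. The median was -0.12 over all arrays and -0.40 without exercised replicates 1, 5 and 6. In the latter comparison 1 of 5 was positive, where 48% of all genes were. There 2 of 5, Apoe and Pltp, had an unadjusted p under 0.05 in limma, as did 14.3% of all probes. Apoe, a lipoprotein component made by liver and macrophages, differed by 0.24 (SE 0.34) over all arrays and by -0.47 (SE 0.15, adjusted p = 0.33 in limma) without those 3. Pltp, the phospholipid transfer protein, differed by -0.23 (SE 0.17) and -0.44 (SE 0.19), and Nr1h3, a liver X receptor, by -0.20 (SE 0.12) and -0.29 (SE 0.15). Macrophage markers, 7 genes with Csf1r and C1qa among them, had a positive difference in 0 of 7, where 43.4% of all genes did, and a median of -0.66. At an unadjusted p under 0.05 in limma 6 of 7 were lower, as were 9.66% of all probes. The median was -0.68 without those 3 arrays, -0.44 with the background range as a block and -0.33 with the hepatocyte list mean added to the block. C1qb, a complement component, had an adjusted p in limma of 0.053 over all arrays and of 0.044 with the background block. Its adjusted p in limma was 0.33 without those 3 arrays and 0.27 with the hepatocyte list mean as a covariate. Within the low-background arrays it was 0.11, and with both terms 0.10. A second probe of Csf1r gave 0.08 (SE 0.18), and a second probe of the marker Adgre1 gave -0.60 (SE 0.19). The mean of the macrophage markers was 8.59 to 9.05 in exercised and 8.93 to 9.72 in sedentary hearts. Their part in the values of the efflux genes was not tested.

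Storage and conversion of cholesterol held the largest positive median of these lists, at 0.92 over 6 of 10 genes, and 0.13 without the 3 arrays rich in liver transcripts. It was 0.40 over the 4 genes detected on all 12 arrays and 0.58 without exercised replicate 6. In limma 0 of the 6 passed the adjusted threshold and 3 were higher at an unadjusted p under 0.05, as were 4.97% of all probes. Without the 3 arrays 1 gene, Nceh1, a cholesteryl ester hydrolase (0.56, SE 0.18), had such a p, as did 14.3% of all probes in either direction. Nceh1 had a mean of 12.92 on high-background and 12.29 on low-background arrays. Its difference over all arrays was 0.33 (SE 0.16). It was 0.14 (SE 0.10) with the background range as a block and 0.06 (SE 0.09) within the low range. Cyp8b1 was detected on 5 exercised and 1 sedentary array and Lcat on 5 and 2, so that both reached the test through the exercised group and their sedentary values lie largely in the background. Cyp8b1, a bile acid enzyme of the liver, differed by 2.46 (SE 0.87, adjusted p = 0.25 in limma) and by 0.28 (SE 0.25) without the 3 arrays rich in liver transcripts. Cyp7b1, another hydroxylase of that pathway, differed by 1.53 (SE 0.62) and then 0.09 (SE 0.19). Lcat, the plasma enzyme that esterifies cholesterol and is made in liver, differed by 1.36 (SE 0.54) and then 0.18 (SE 0.23).

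**Figure D5:**
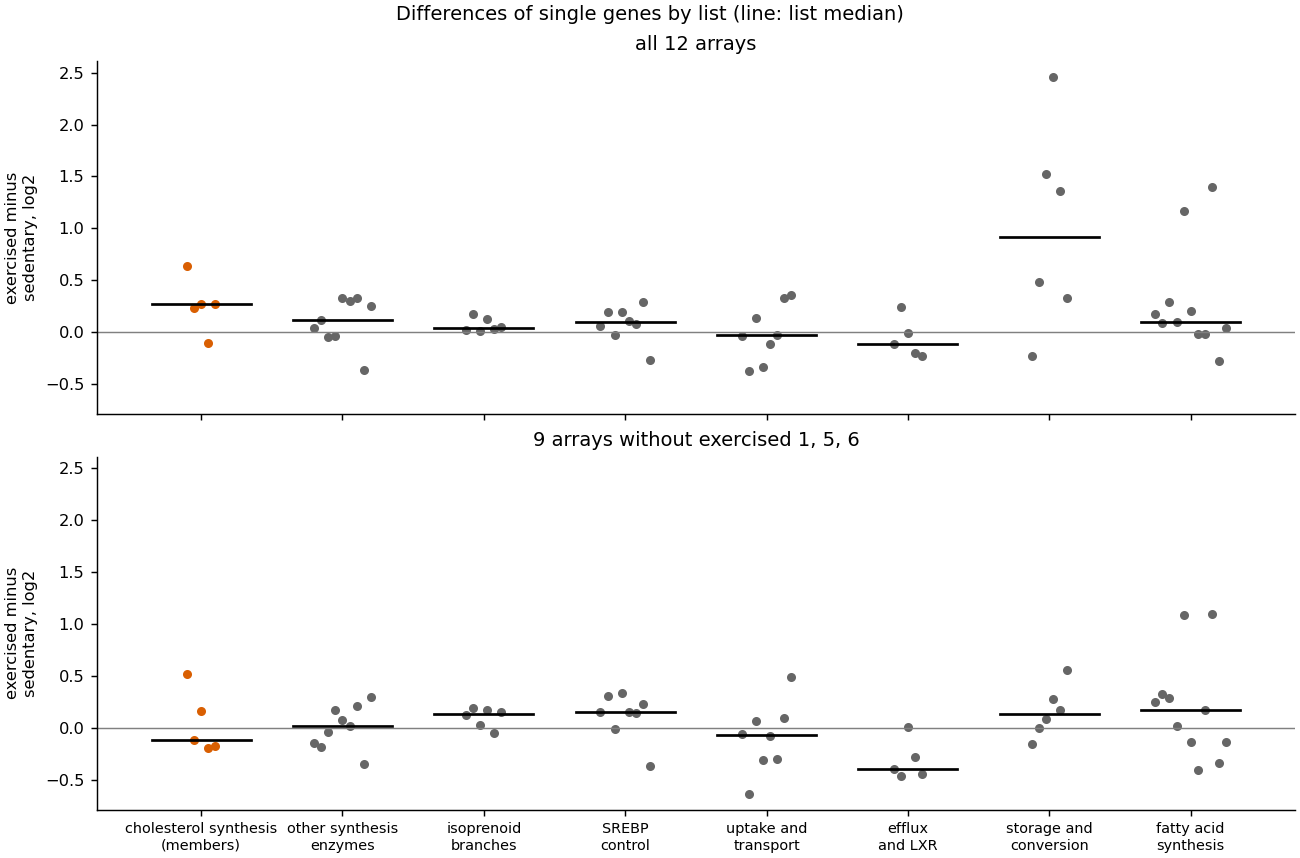
Difference between exercised and sedentary hearts (log2) for each tested gene of 8 lists, over 12 arrays and over 9 arrays, with the list median as a line. The median of the cholesterol synthesis genes moves from 0.27 to -0.11 and that of storage and conversion from 0.92 to 0.13, while Elovl6 in fatty acid synthesis is at 1.16 and 1.09.

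Fatty acid synthesis, the sister pathway under SREBP-1, had 0 genes past the adjusted threshold in limma and 3 higher at an unadjusted p under 0.05, as were 4.97% of all probes. Without the 3 arrays rich in liver transcripts 1 gene, Elovl6, had such a p, as did 14.3% of all probes in either direction. Of 14 genes 11 were tested, with a median of 0.09 and of 0.18 without the 3 arrays. Elovl6, the elongase of saturated fatty acids, was at 5.33, 5.89 and 7.30 in exercised and at 4.65, 5.12 and 5.22 in sedentary hearts. All 6 exercised arrays lay above every sedentary array, as did 0.281% of all probes. It was detected on 6 exercised and 4 sedentary arrays. The difference was 1.16 (SE 0.31, adjusted p = 0.15 in limma), and 1.09 (SE 0.35, adjusted p = 0.33 in limma) without the arrays rich in liver transcripts. Scd1, the stearoyl-CoA desaturase, was at 8.25, 10.37 and 12.12 in exercised and at 8.36, 8.90 and 9.30 in sedentary hearts, and 5 of 6 exercised arrays exceeded every sedentary array while replicate 2 lay below all of them. Its difference was 1.40 (SE 0.51, adjusted p = 0.26 in limma) and 1.10 (SE 0.58) without those arrays. Acss2, which makes acetyl-CoA from acetate, differed by 0.28 (SE 0.13).

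Exercised replicate 3 held the highest value of both Elovl6 and Scd1, at 7.30 and 12.12, and also of the adipocyte markers. Adiponectin (Adipoq) was at 8.96 there, against 5.53 to 7.76 on the other exercised and 5.63 to 7.94 on the sedentary arrays, and Cidec, a lipid droplet protein, at 7.44 against 4.38 to 5.53 and 4.59 to 6.36. Only these 2 of 8 adipocyte markers passed the detection filter, and their part in the values of Elovl6 and Scd1 was not tested.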

How the data were processed

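Biotin-labelled RNA of 12 whole-heart samples was hybridised to beadchips. The authors deposited bead intensity per probe and array without normalization, with a detection p-value for each, per the file headers. They also deposited processed values on a log2-like scale; the submitters' processing notes name lumi without the transformation, and array medians were all 6.98.

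Intensities were corrected with limma's nec (background from the detection p-values, offset 16) and quantile normalized. The test used limma 3.58.1 under R 4.3.3, with an intensity trend in eBayes and Benjamini-Hochberg adjustment at 0.05, over probes that 6 or more of the 12 arrays detected at p under 0.01. Each gene was represented by its probe of highest mean. No 2 arrays held identical values. Background ranges were divided at a raw 5th percentile of 75. On simulated data with 200 changed among 17098 probes, the fit recovered 41.8% of 1.5-fold, 80.6% of 2-fold and 97.0% of 3-fold changes, with 3.95% false calls; the simulated noise was independent between probes.

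Members, lists and alternatives were chosen with earlier results of these data known. Genes named were all members, Srebf1, Srebf2, the 3 of smallest p in each lipid list, hepatocyte markers of highest mean and the 6 most alike. Marker genes of cell types, Adipoq and Cidec among them, Nceh1, Coq2, Lrp1, Stard4, Mbtps2, Nsdhl and Acly were named outside this rule. Some genes that the rule covers are not reported here. Gene symbols came from the platform annotation, which a RefSeq table (GRCm38.p6) changed for 0 probes. Promoter sequences are from RefSeq.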

Additional observations from a re-analysis of the deposited data

Results flagged for a closer look

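In 6 of 120 sets of 6 values, 1 array was remote from its group, and chance would give about 6 such cases. Sedentary replicate 2, of the high-background range, was high for probe 3 of Insig1 at 6.38 (next 5.21) and for Nsdhl at 6.11 (next 5.30), and low for Pmvk at 6.27 (next 6.87). Exercised replicate 3 was high for Pggt1b at 9.42 (next 8.96) and for Acly, the ATP citrate lyase, at 11.72 (next 10.96). Sedentary replicate 5, with the highest hepatocyte list mean of its group, was high for Cyp8b1 at 5.42 (next 4.86).

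A pair of probes outside the test gave a signal above every sedentary array. The Idi1 probe was detected on exercised replicate 2 at 5.27, where the highest sedentary value was 4.84, and a second Sqle probe on exercised replicate 6 at 5.55, where it was 4.47.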

How the results depend on the processing

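No member gene was called under any of 17 alternatives or 12 fits that left out an array. The median of the 5 genes stayed between 0.16 and 0.29 except without the 3 arrays rich in liver transcripts (-0.11), with the hepatocyte list mean as a covariate (-0.15) and with that covariate and the background block (-0.089); without single arrays it was 0.11 (without exercised replicate 6) to 0.33. In those 3 fits Fdps turned to -0.11, -0.16 and -0.17 and Sqle to -0.18, -0.32 and -0.39. Mvd turned to 0.0044 within the low-background arrays. Cyp51 and Insig1 kept their sign throughout, with Cyp51 between 0.14 and 0.75 and Insig1 between 0.16 and 0.82, the latter as the median of its detected probes. Without single arrays Fdps was 0.11 to 0.31 and Sqle 0.02 to 0.40. Over its alternatives the adjusted p of Cyp51 in limma was 0.074 to 1.00 and that of Insig1 0.22 to 1.00. Of the 53 genes in the other lipid lists 1, Elovl6, was called with array weights (0.98, adjusted p = 0.035 in limma) and 0 otherwise. The 15 probes called over the whole table became 0 to 576 in other settings (576 with array weights). They became 266 without sedentary replicate 2, 19 without sedentary replicate 1, 8 without exercised replicate 1, 2 without exercised replicate 4 or sedentary replicate 3, and 1 without exercised replicate 2, 3, 5 or 6 or sedentary replicate 4, 5 or 6. Same-numbered arrays deviated together in 3 of 6 pairs and 2 of 6 exercised arrays matched their own number best. The labels do not say whether the numbers pair the samples. This check cannot settle it, because liver transcripts and the background range also set arrays apart. A replicate block gave 0 members called, a median of 0.27, 0 pathway genes called and 3 probes in all. The within-high-background fit was chosen after seeing the data. Genes detected on few arrays, Idi1 among them, have no usable difference here.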
